A study of Homo sapiens with 4 samples.

Results

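The DNA methylation and demethylation genes form a set of 10 genes, all of them measured, out of 15870 named genes on the arrays. They are DNMT1, DNMT3A, DNMT3B and UHRF1, which write or maintain cytosine methylation, TET1, TET2 and TET3, which oxidise it, and the DNA glycosylases TDG, MBD4 and SMUG1. Members were matched by gene symbol, and where a gene had several probe sets 1 was to be chosen by its mean signal over the 4 arrays. Each of the 10 had 1 probe set, so signal decided none of these choices. The set was put together with the lower TDG signal in shDROSHA already known, so the TDG values below describe that choice and are not independent evidence for it.

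The study compared total RNA of MDA-MB-231 cells, an established human breast carcinoma line, on 4 Affymetrix arrays. In 2 arrays the cells were labelled shDROSHA, a short hairpin RNA against DROSHA, the RNase III enzyme that releases microRNA hairpins from their primary transcripts in the nucleus. In the other 2 they were the control labelled shNC, which the design text calls mock-transfected. All 4 cultures were the same line in the same medium, and the titles call the replicates biological. The sources used here do not give the time after transfection or the number of hairpins. The values are log2 signals, and a difference between groups is a log2 fold change, shDROSHA minus shNC.

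Cytosines followed by guanine carry most DNA methylation in human cells. DNMT3A and DNMT3B place the mark on unmethylated DNA, and DNMT1, brought to replicated DNA by UHRF1, copies it to the new strand. TET enzymes oxidise 5-methylcytosine in steps, and TDG cuts out the later oxidation products, after which base excision repair restores an unmethylated cytosine. TDG and MBD4 also remove thymine left opposite guanine when 5-methylcytosine is deaminated, and SMUG1 removes uracil and oxidised derivatives of it. Several of these mRNAs are known microRNA targets, and the part of microRNAs in their values here was not tested.

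The microRNAs best known for this family are miR-29, which targets DNMT3A, DNMT3B, TET mRNAs and TDG, and the miR-148 and miR-152 family, which targets DNMT1. Their mature sequences in RefSeq (GRCh38.p14) are shown to set out the shared seed, bases 2 to 8, in capitals. The 3 miR-29 sequences share 1 seed, and the 3 sequences of miR-148a, miR-148b and miR-152 share another.
hsa-miR-29a-3p: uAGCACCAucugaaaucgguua
hsa-miR-29b-3p: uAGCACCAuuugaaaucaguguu
hsa-miR-29c-3p: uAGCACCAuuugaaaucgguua
hsa-miR-148a-3p: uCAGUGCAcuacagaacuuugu
hsa-miR-148b-3p: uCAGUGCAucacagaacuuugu
hsa-miR-152-3p: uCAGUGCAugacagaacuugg
In each group 3 distinct mature sequences of the RefSeq table hold the seed. MicroRNA levels were not analysed here, and target sites in the mRNAs were not searched.

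The labels were checked first. DROSHA signal was 8.71 and 8.74 under the hairpin against DROSHA and 9.66 and 9.76 under shNC, a log2 fold change of -0.99 (SE 0.0733; limma adjusted p = 3.89e-06, and 0.0843 with 1 constant prior variance). The groups did not overlap, and DROSHA mRNA fell where its own hairpin was the label. The mesenchymal-like markers VIM, CD44, AXL, CAV1 and FOSL1 had signals of 9.45 to 12.09, at or above the 84.8 percentile of all probe sets. Of 6 luminal markers, EPCAM, ESR1, ERBB3, GATA3 and FOXA1 had signals of 4.92 to 7.20, at or below the 47.3 percentile, whereas KRT18, a keratin of simple epithelia, stood at 10.90 to 11.13. Markers of blood cells, endothelium, fibroblasts and hepatocytes (PTPRC, CD3E, PECAM1, VWF, COL1A1, COL1A2 and ALB) had signals of 4.21 to 8.43. They stood from the 3.42 percentile (PTPRC) to the 68.4 percentile (COL1A2), and 0 of these 7 passed the test. Their summed log2 signal was 43.5 to 44.0 in shDROSHA and 42.7 to 43.4 in shNC arrays, and its part in the results was not tested. Among the mesenchymal-like markers AXL (0.33) and FOSL1 (0.37) rose and CAV1 (-0.23) fell in the trended fit. That is 3 of 5 against 6.41% of all probe sets, but calls were more frequent among bright probe sets. With those under the median signal left out, 1319 of 9302 were called. The constant fit called 0 of these markers (limma adjusted p of 0.265, 0.201 and 0.303 for AXL, FOSL1 and CAV1).

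**Figure D1:**
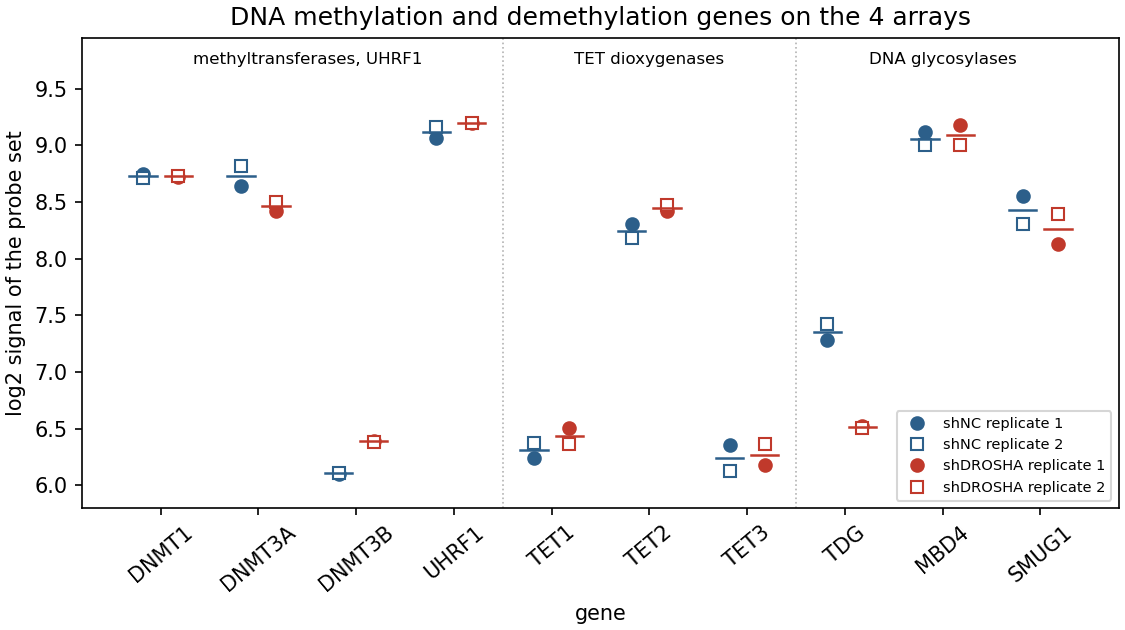
Log2 signal of each gene's probe set (vertical axis) for the 10 genes (horizontal axis), with shNC arrays in blue and shDROSHA arrays in red, circles for replicate 1, squares for replicate 2 and a bar at each group mean (n = 2). TDG lies at 6.51 and 6.53 in shDROSHA and at 7.29 and 7.42 in shNC, and the group means of the other genes differ by at most 0.28.

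TDG was the member that fell, and the other 9 did not pass the test. In the trended fit, in which limma lets the expected spread follow signal level, 6.41% of all 18603 probe sets passed an adjusted p of 0.05, 3.12% as higher and 3.28% as lower. Of the 10 genes 0 rose and 1 fell, which is 10.0% of so small a set that 1 gene makes up the whole count. In a fit with 1 constant prior variance for all probe sets, 0 of the 10 passed, against 1 probe set, or 0.00538%, of the array. In that fit 3 of the 10 (TDG, DNMT3A and DNMT3B) had an unadjusted limma p under 0.05, against 14.9% of all probe sets. The median log2 fold change was 0.03 over the 10 genes and 0.0009 over all probe sets. The groups did not overlap at 5 of the 10 genes (TDG, DNMT3A, DNMT3B, UHRF1 and TET2), against 47.8% of all probe sets, so that share was near the background.

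TDG, which removes thymine and oxidised methylcytosine from DNA, had signals of 6.53 and 6.51 with DROSHA depleted and 7.29 and 7.42 in the controls. Both knockdown arrays lay below both controls, and the gap between the groups (0.76) was wider than the distance between replicates of either group. The group means were 6.52 ± 0.0141 and 7.36 ± 0.0978 (log2 mean ± SD, n = 2 each), so TDG mRNA was 1.79-fold lower. The trended limma fit gave a log2 fold change of -0.84 (SE 0.130), a 95% interval of -1.12 to -0.56 and an adjusted p of 0.00162. In the constant fit the same difference had an adjusted p of 0.112 in limma and did not pass. With 1 array left out at a time it ran from -0.91 to -0.77, below 0 in each of the 4 fits. Of all probe sets, 47 had a lower log2 fold change. The TDG probe set stood at the 44.6 percentile of mean signal. RefSeq lists a pseudogene, TDGP1, which has no probe set of its own here, and whether the TDG probes also read it was not tested.

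MBD4 and SMUG1, the glycosylases whose substrates overlap with those of TDG, did not show such a difference. MBD4, which joins a methyl-CpG binding domain to a thymine glycosylase, had signals of 9.18 and 9.01 in shDROSHA and 9.11 and 9.00 in shNC arrays. The groups overlapped, and the log2 fold change of 0.03 had a 95% interval of -0.14 to 0.21; it was -0.05 without shDROSHA replicate 1 and -0.02 without shNC replicate 2. SMUG1 read 8.13 and 8.39 in shDROSHA and 8.56 and 8.31 in shNC arrays, with replicates further apart than the group means. Its log2 fold change was -0.17 (95% interval -0.41 to 0.07; limma adjusted p = 0.46), and between -0.30 and -0.04 with single arrays left out. Both intervals lie above that of TDG.

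The start of the TDG gene is printed because TDG is the member whose mRNA fell, with every CpG, the dinucleotide these enzymes act on, in capitals. The RefSeq window (GRCh38.p14, chr12:103965622-103965921, plus strand) runs from 250 bases before to 50 after the annotated start.
TDG: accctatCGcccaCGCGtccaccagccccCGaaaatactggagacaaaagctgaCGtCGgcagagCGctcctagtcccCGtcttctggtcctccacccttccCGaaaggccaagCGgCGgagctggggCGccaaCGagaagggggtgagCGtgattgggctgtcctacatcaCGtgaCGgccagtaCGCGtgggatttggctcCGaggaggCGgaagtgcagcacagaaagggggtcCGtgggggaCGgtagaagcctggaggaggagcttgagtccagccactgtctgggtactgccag
It holds 22 CpG, more than 62.3% of the 35116 windows of 300 bases in the table, whose median is 14. The window of MBD4, whose signal differed by 0.03, holds 29, and that of DNMT1 holds 30. Searched on both strands, the GC box GGGCGG was absent from the TDG window and present in 45.0% of all windows, the CCAAT box CCAAT occurred once (34.6% of all windows hold it) and TATAAA was absent (11.5%). No motif searched contains another, and a missing match says only that these letters are not in this window. Of the 10 genes 9 had windows in the table, 20 in all, with 3 (DNMT3B) to 46 (DNMT3A and UHRF1) CpG each. Of those 20 windows, 15 had at least the median count. DNA methylation itself was not analysed here.

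**Figure D2:**
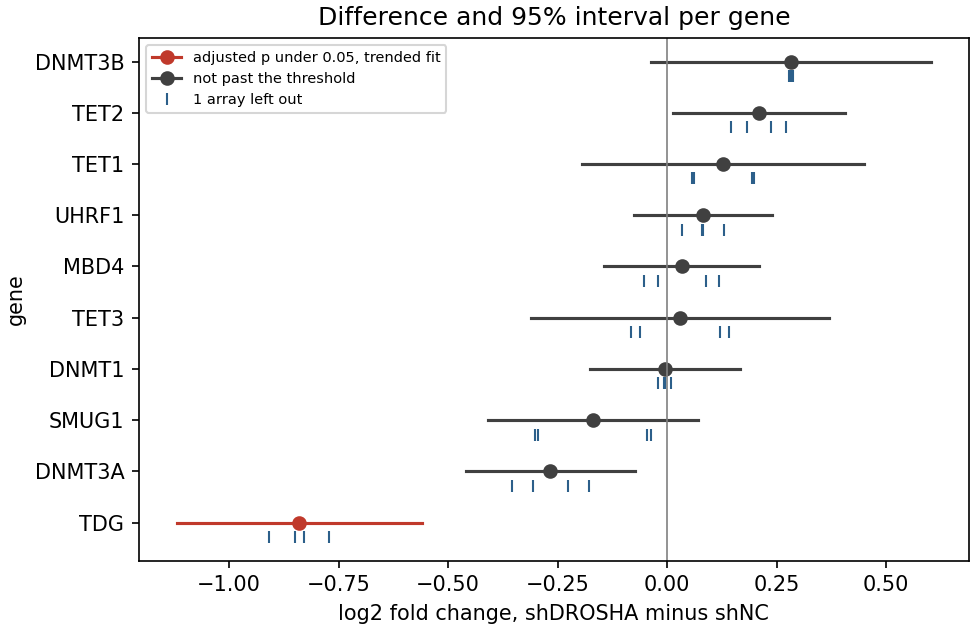
Log2 fold change, shDROSHA minus shNC (horizontal axis), for the 10 genes (vertical axis), with points for the estimate, lines for the 95% interval of the trended fit and blue ticks for the values with 1 array left out. TDG (-0.84, red) passed an adjusted p of 0.05, and its interval of -1.12 to -0.56 lies below those of all the others.

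The 2 methyltransferases that place new methylation differed in opposite directions, and neither passed the test. DNMT3A read 8.42 and 8.50 in shDROSHA and 8.64 and 8.82 in shNC arrays. Both knockdown arrays lay below both controls, by a log2 fold change of -0.27 (SE 0.0899, 95% interval -0.46 to -0.07; limma adjusted p = 0.103). The difference was -0.18 without shNC replicate 2, the highest of the 4 arrays, and -0.35 without shNC replicate 1. DNMT3B read 6.39 and 6.38 in shDROSHA and 6.10 and 6.11 in shNC arrays, so the replicates of each group were almost identical. Its log2 fold change of 0.28 had an SE of 0.149 and a 95% interval of -0.04 to 0.60 (limma adjusted p = 0.328). Its probe set is dim, at the 31.9 percentile, where the fit expects a wider spread than these replicates showed. In the constant fit DNMT3B had an SE of 0.0794 (limma unadjusted p = 0.0161, adjusted p = 0.246). Of the 10 genes 3 had an unadjusted p under 0.05 in the trended fit (TDG, DNMT3A and TET2), against 19.3% of all probe sets.

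The maintenance pair was nearly level between the groups. DNMT1, the copying methyltransferase, read 8.72 and 8.73 in shDROSHA and 8.75 and 8.72 in shNC arrays. All 4 values lay within the spread of the controls, and the log2 fold change of -0.01 (95% interval -0.18 to 0.17) became 0.03 with each array centred on its median and 0.01 without shNC replicate 1. UHRF1, which reads half-methylated DNA and recruits DNMT1, read 9.20 and 9.20 in shDROSHA and 9.07 and 9.16 in shNC arrays. The groups were separated by 0.03, and the log2 fold change of 0.08 had a 95% interval of -0.08 to 0.24 (limma adjusted p = 0.621). Leaving out shNC replicate 1 gave 0.03 and leaving out shNC replicate 2 gave 0.13. The intervals leave room for a change of up to 0.18 in DNMT1 and 0.24 in UHRF1 on the log2 scale.

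Both genes are most active in S phase, so genes of DNA replication are set beside them. Among 23 S phase genes the trended fit called 7 as higher, 0 as lower and left 16 uncalled; their median log2 fold change was 0.08. The share called was 30.4%, against 6.41% of all probe sets. All 23 stand at or above the 53.4 percentile of signal, and calls were more frequent among bright probe sets. Without probe sets under the median signal 9 of the 23 were called, against 1319 of 9302 probe sets. The list held 1 gene called as lower in that fit, with quantile normalization again and at an adjusted p of 0.1. CCNA2, cyclin A2, rose by 0.47 (SE 0.0494), CCNE2, cyclin E2, by 0.50 (SE 0.0795) and MCM6, part of the helicase that opens DNA for replication, by 0.47 (SE 0.0802). The count of 7 was 0 in the constant fit (4 at an unadjusted p under 0.05 in limma, against 14.9% of all probe sets). These 3 were named for the smallest p of the list, and UHRF1, at 0.08, stood at the list's median. The part of the S phase genes in the values of the methylation genes was not tested.

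The 3 TET dioxygenases did not pass the test, and all 3 estimates were above 0. TET2 read 8.42 and 8.48 in shDROSHA and 8.30 and 8.18 in shNC arrays, and both knockdown arrays lay above both controls. Its log2 fold change was 0.21 (SE 0.0915, 95% interval 0.01 to 0.41), with an unadjusted p of 0.0385 and an adjusted p of 0.222 in limma. Leaving out single arrays gave 0.15 (without shNC replicate 2) to 0.27 (without shNC replicate 1).

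TET1, the founding member of the family, read 6.51 and 6.37 in shDROSHA and 6.24 and 6.38 in shNC arrays. The groups overlapped by 0.01, and the log2 fold change was 0.13 (95% interval -0.19 to 0.45). It was 0.06 without shDROSHA replicate 1 or shNC replicate 1 and 0.20 and 0.19 without their replicate 2. TET3, the form known from the egg and zygote, read 6.18 and 6.36 in shDROSHA and 6.35 and 6.13 in shNC arrays. Replicates were further apart than the groups: the log2 fold change of 0.03 (95% interval -0.31 to 0.37) was -0.06 without shDROSHA replicate 2 and -0.08 without shNC replicate 2. The probe sets of TET1 and TET3 are dim, at the 34.1 and 32.1 percentile, and their intervals would not exclude a change of the size seen for TET2.

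**Figure D3:**
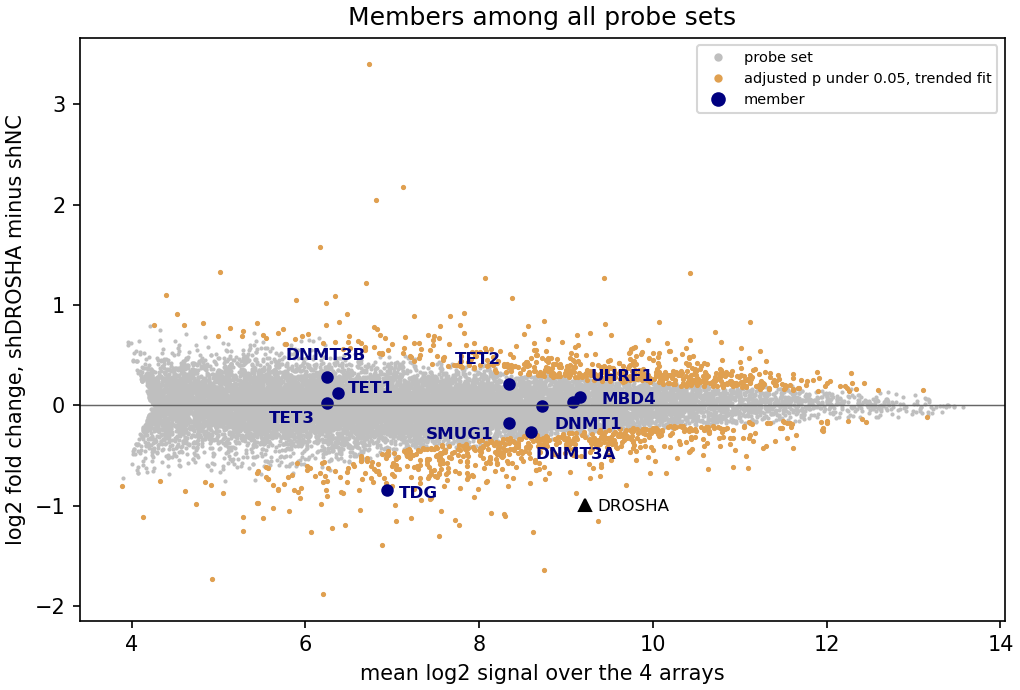
Log2 fold change, shDROSHA minus shNC (vertical axis), against mean log2 signal over the 4 arrays (horizontal axis) for all 18603 probe sets (grey), those past an adjusted p of 0.05 in the trended fit (orange), the 10 genes (blue) and DROSHA (black triangle). TDG stands apart at -0.84, while the other 9 lie between -0.27 and 0.28, inside the band of probe sets that did not pass.

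Genes that work with the family were taken from 6 lists of 79 genes, of which 72 were measured and 7 were not analysed here. The trended fit called 3 of the 72 as higher and 2 as lower, and 67 were not called. That is 6.94%, near the 6.41% of all probe sets, and the median log2 fold change was 0 within rounding. The constant fit called 0 of them (8 at an unadjusted p under 0.05 in limma, against 14.9% of all probe sets). Leaving out shNC replicate 1 moved the count of 5 to 2, and leaving out shDROSHA replicate 1 moved it to 12; the other arrays gave 6 (shDROSHA replicate 2) and 4 (shNC replicate 2).

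The methyl donor cycle, which makes S-adenosylmethionine and clears its product, held 3 of the 5. That is 23.1% of its 13 measured genes against 6.41% of all probe sets, and no enrichment was tested. The 3 are bright, at the 83.9 to 98.0 percentile of signal, where calls were more frequent. Without probe sets under the median signal, 1319 of 9302 were called. With single arrays left out, AHCYL1 kept its call each time and the other 2 did not. MAT2A, the enzyme that makes S-adenosylmethionine, read 11.60 and 11.62 in shDROSHA and 11.41 and 11.46 in shNC arrays. It rose by 0.18 (SE 0.0432; limma adjusted p = 0.0251), and did not pass without shNC replicate 1 (0.226) or shNC replicate 2 (0.052). AHCY, which hydrolyses S-adenosylhomocysteine, a product that inhibits methyltransferases, read 9.26 and 9.32 in shDROSHA and 9.63 and 9.55 in shNC arrays. Both knockdown arrays were lower, with a log2 fold change of -0.30 (SE 0.0690; limma adjusted p = 0.0176, and 0.17 without shNC replicate 1).

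AHCYL1 read 10.99 and 10.96 in shDROSHA and 11.34 and 11.31 in shNC arrays, a log2 fold change of -0.36 (SE 0.0459; limma adjusted p = 0.000425). With 1 array left out at a time it ran from -0.37 to -0.34. AHCYL1 resembles AHCY in sequence but is known as a binding partner of the inositol trisphosphate receptor and not as a hydrolase. Of the 13 measured genes of this list 1 was called as higher and 2 as lower, and the median log2 fold change was -0.05.

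Base excision repair downstream of the glycosylases held 1 gene that rose, of 12 measured. That is 8.33%, near the 6.41% of all probe sets called in either direction. TDP1, which frees DNA ends from trapped topoisomerase I, read 9.61 and 9.85 in shDROSHA and 9.34 and 9.36 in shNC arrays. It rose by 0.38 (SE 0.0792; limma adjusted p = 0.0112, and 0.0534 without shDROSHA replicate 2, the highest array). Trapped topoisomerase I is a different lesion from the one TDG leaves. The list's median log2 fold change was 0.04, and 11 of its genes did not pass.

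Of the 8 other DNA glycosylases 0 passed the trended fit and 0 the constant fit, with log2 fold changes from -0.25 to 0.16. At an unadjusted limma p under 0.05 in the trended fit the count was 0, against 19.3% of all probe sets. The smallest p was that of MPG, which removes alkylated purines, at -0.25 (95% interval -0.53 to 0.03; limma adjusted p = 0.316). It was -0.42 without shDROSHA replicate 1 (adjusted p = 0.043 in limma) and -0.08 without shDROSHA replicate 2 (0.867). Their median was 0.03. A count of 0 among 8 genes is near the 6.41% of all probe sets, and whether TDG differs from the other glycosylases was not tested.

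Among TET partners and enzymes supplying 2-oxoglutarate, 1 of 13 rose and 12 did not pass. That is 7.69%, near the 6.41% of all probe sets called in either direction. GADD45A, a stress-induced protein linked to active demethylation, read 8.09 and 8.34 in shDROSHA and 7.67 and 7.77 in shNC arrays. It rose by 0.49 (SE 0.110, limma adjusted p = 0.0149). The estimate was 0.37 without shDROSHA replicate 2 and 0.45 without shNC replicate 1, though the call was not kept in either fit.

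Of the 14 partners of DNA methyltransferases 0 passed, against 6.41% of all probe sets. An unadjusted limma p under 0.05 was held by 2 of them, against 19.3%, and the constant fit called 0. The smallest p was that of DMAP1, a DNMT1-binding protein, at -0.37 (SE 0.112; limma adjusted p = 0.0657), which passed without shDROSHA replicate 1 (0.0225) and when the dimmer part of the probe sets, those under the median signal, was left out (0.041). Of the 12 readers of methylated or unmethylated CpG 0 passed, against 6.41% of all probe sets. At an unadjusted limma p under 0.05 the count was 0, against 19.3%, and the constant fit called 0. CXXC4, which holds a CpG-binding domain related to that of TET enzymes, had the smallest p, at -0.44 (95% interval -0.90 to 0.03), which became -0.68 when shNC replicate 1 was left out and -0.19 when shNC replicate 2 was. It is among the dimmest probe sets of the array, with signals of 3.76 to 4.49.

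**Figure D4:**
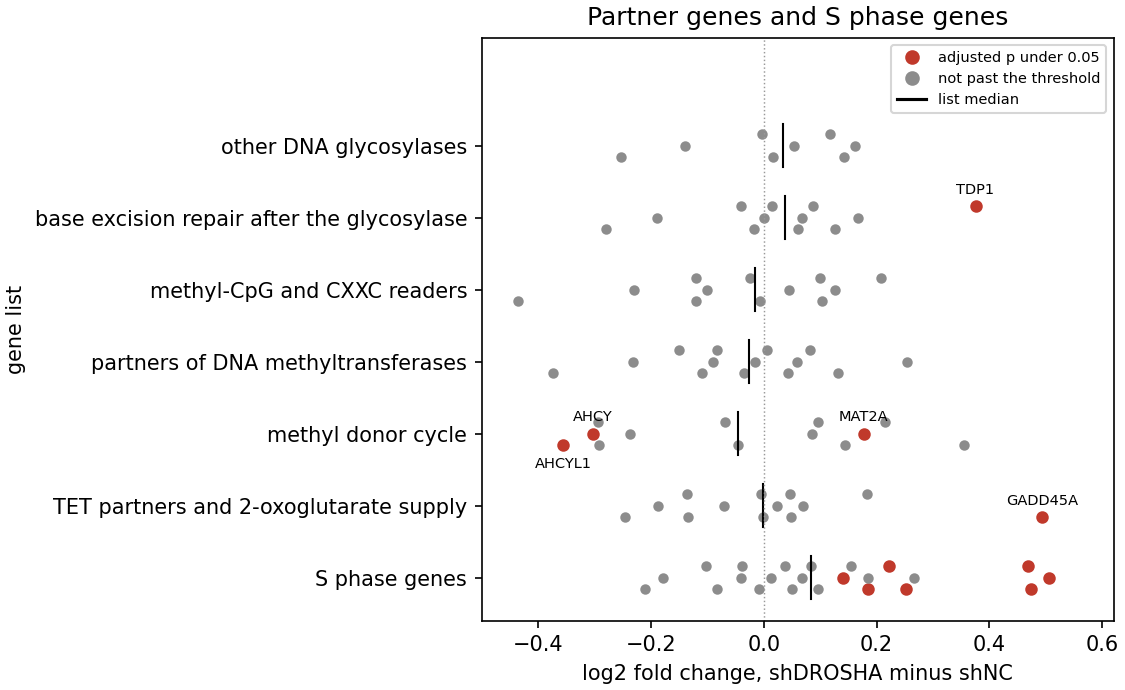
Log2 fold change, shDROSHA minus shNC (horizontal axis), of each measured gene in 6 lists of partner genes and the S phase list (vertical axis), with genes past an adjusted p of 0.05 in red and a black bar at each list's median; height within a row only separates points. The called partner genes are TDP1 (0.38), MAT2A (0.18), AHCY (-0.30), AHCYL1 (-0.36) and GADD45A (0.49), and the list medians lie between -0.05 and 0.08.

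The genes whose pattern over the 4 arrays was most like that of TDG were GRAMD1B, STARD10 and G0S2, by the Euclidean distance between log2 values after subtraction of each gene's mean (0.0432, 0.0762 and 0.0766) among 15860 genes. GRAMD1B, a carrier of cholesterol between membranes, read 5.24 and 5.28 in shDROSHA and 6.04 and 6.17 in shNC arrays. STARD10, a phospholipid transfer protein, read 6.93 and 6.94 against 7.62 and 7.81. G0S2, an inhibitor of triglyceride lipase, read 9.28 and 9.30 against 10.05 and 10.12. With 4 arrays the measure mostly reflects a log2 difference of like size, -0.84, -0.78 and -0.79 beside -0.84 for TDG.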

How the data were processed

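The authors ran RMA, per the submitters' processing notes, and deposited 1 log2 signal for each probe set on each array. RMA brings the arrays to nearly equal distributions, so a shift common to most mRNAs is hidden. The genome build and any probe set filter used by the authors are not given in the sources here. Of 18603 probe sets, 15886 had 1 symbol, 0 several and 2717 none, and all 15886 matched RefSeq (GRCh38.p14) by Entrez identifier. Sequences are from RefSeq tables.

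Groups came from the sample titles. limma 3.58.1 in R 4.3.3 (lmFit, eBayes) compared 2 with 2 arrays, and p-values of all probe sets were adjusted together by Benjamini-Hochberg. The trended prior (11.9 prior and 2 residual degrees of freedom) was taken as the main fit because replicates spread more at low signal (SD 0.213 in the dimmest of 5 equal bins, 0.0672 in the brightest). SEs, 95% intervals and calls are from it unless the constant fit is named, and intervals are not adjusted for the number of genes. An exact permutation test of 2 against 2 cannot go below 0.333. Alternatives covered prior, scaling, dim probe sets, block, threshold and single arrays.

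Members, lists and the main fit were chosen with earlier results of these data known. Named were all members, DROSHA, the markers, 3 genes most like TDG, and up to 3 called genes per list by smallest p (1 gene where none passed); other genes were not singled out. The number of arrays limits the precision. With 11.9 prior and 2 residual degrees of freedom, p-values of the trended fit draw more on the spread of probe sets of like signal. The gene's own spread between these arrays weighs less.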

Additional observations from a re-analysis of the deposited data

How the results depend on the processing

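The choice of prior variance mattered most. The constant prior had 3 prior degrees of freedom, against 11.9 for the trended prior. For TDG the constant fit gave an SE of 0.0908 and the trended fit 0.130. With 1 constant prior variance the counts of calls were 0 of the 10 methylation genes, 0 of the partner genes, 0 of the S phase genes and 1 of all probe sets (against 1, 5, 7 and 1192), and DROSHA, at -0.99, had a limma adjusted p of 0.0843. Without probe sets below the median signal 0 of the 6 methylation genes left were called, since TDG is then not tested. At an adjusted p of 0.1 the counts were 9 partner genes and 1824 probe sets. With 1 array left out, 1 methylation gene (TDG), 2 to 12 partner genes, 3 to 7 S phase genes and 535 to 1949 probe sets were called, and DROSHA ran from -1.04 to -0.94. Of probe sets, leaving out shNC replicate 1 gave 535, shNC replicate 2 gave 748 and shDROSHA replicate 1 gave 1949. A group left with 1 array was taken to vary as the other group does, and the prior variance was estimated anew. Calls and adjusted p of these fits therefore do not measure how well the arrays agree.

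Signs turned for DNMT1 with each array centred on its median (0.0275) and, with 1 array left out, for DNMT1 (-0.021 to 0.0098), MBD4 (-0.0523 to 0.1189) and TET3 (-0.0816 to 0.1403). Centring on the median moved the share of calls that were higher from 48.7% to 62.5%. TDG kept its call under the robust trend, both scalings, the lower-quartile filter and the replicate block, at limma adjusted p of 0.0012 to 0.00247. Under the replicate block 1 methylation gene, 6 partner genes and 1391 probe sets were called; the deviations of same-numbered arrays correlated at -0.0218, so the numbers were not taken to pair the samples. Using any or all probe sets of a gene changed nothing, since each member had 1. For the remaining differences the cause was not tested, and low signal limits DNMT3B, TET1 and TET3 most.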
